A study of Mus musculus with 55 samples.

Results

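De novo lipogenesis, the making of fatty acids from acetyl-CoA, was followed through 10 genes in the gonadal white fat of mice that carry knock-in alleles of the Huntington's disease gene. The genes were Acly (ENSMUSG00000020917), Acaca (ENSMUSG00000020532), Fasn (ENSMUSG00000025153), Scd1 (ENSMUSG00000037071), Elovl6 (ENSMUSG00000041220), Me1 (ENSMUSG00000032418), Thrsp (ENSMUSG00000035686), Mlxipl (ENSMUSG00000005373), Srebf1 (ENSMUSG00000020538) and Acss2 (ENSMUSG00000027605). They were chosen by symbol, and all 10 were found among the 43432 genes of the count table. All 10 passed the filter on low counts, which left 21113 genes to test. In fat cells, citrate from mitochondria is cleaved to acetyl-CoA, which is carboxylated, built into palmitate, elongated and desaturated, with NADPH as the reductant. Insulin and carbohydrate drive these genes through transcription factors of the SREBP and ChREBP families. White fat and liver are the tissues best known for the pathway.

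Messenger RNA was sequenced from C57BL/6 mice aged 6 months. The animals were heterozygous for a knock-in Htt allele with 80, 92, 111, 140 or 175 CAG repeats (Q80, Q92, Q111, Q140 and Q175, here the expanded lines), heterozygous for a knock-in allele with 20 repeats (Q20), or littermate wild type (WT). Males and females were taken in each of the 7 genotypes, with 4 libraries per group except 3 for WT females, 55 in all. Per the labels, each expanded line was housed with its own genotype, whereas Q20 and WT mice were housed with each other, so housing and repeat expansion cannot be told apart. The labels number the replicates without saying how the animals were drawn, so p-values measure the spread between these libraries.

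Total counts lay between 35094442 and 51363637 per library, with a median of 42009365. The 15 WT and Q175 libraries carry consecutive library numbers, and 39 of the 40 others carry lower ones. Wherever WT or Q175 is set against another line, as in Q175 against Q20, genotype and run of library numbers cannot be told apart. The same holds for Q20 against WT and for the place of Q175 in the slope on repeat number. Q140 male 4 had Xist, the X-inactivation RNA, at 711.9 CPM (counts scaled to a common library size) and the Y-linked Ddx3y at only 0.0470 CPM. In Q140 female 1 the values were 0.515 CPM for Xist and 76.6 CPM for Ddx3y. Both go against their labelled sex, so the main tests between the sexes and those of Q140 are also given without them. The 14 adipocyte markers summed to 7593 to 70420 CPM in male libraries and 33810 to 71950 CPM in female libraries (34720 to 71950 CPM without Q140 female 1), and none was at 0 in any group. The sum of 14 markers of epididymis and testis ran between 0.0940 and 30400 CPM in males and between 0 and 16.9 CPM in females. Without the 2 Q140 libraries it ran between 0.305 and 30400 CPM in males and between 0 and 4.98 CPM in females. It reached 100 CPM in 14 male libraries. In those 14 males the adipocyte sum had a median of 33690 CPM, against 57770 CPM in the 13 other males without Q140 male 4. In bulk tissue, fewer cells of a type and less RNA per cell cannot be told apart.

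The stretch before the transcription start is shown for Elovl6 and Acss2, the members that differed most between the sexes, for Fasn and Thrsp, and for Mlxipl, the only member with a CACGTG there. Each sequence is the 250 bases upstream of a RefSeq start in GRCm38.p6, read 5′ to 3′ on the gene's strand. The windows are chr3:129532136-129532385 on the plus strand for Elovl6, chr2:155517793-155518042 on the plus strand for Acss2 and chr11:120824548-120824797 on the minus strand for Fasn. They are chr7:97417551-97417800 on the minus strand for Thrsp and chr5:135089640-135089889 on the plus strand for Mlxipl. Capitals mark CCAAT (a box bound by NF-Y), CACGTG (an E-box), GGGCGG (a GC box bound by Sp factors) and TCACNCCAC (a sterol-response form) on either strand.
Elovl6: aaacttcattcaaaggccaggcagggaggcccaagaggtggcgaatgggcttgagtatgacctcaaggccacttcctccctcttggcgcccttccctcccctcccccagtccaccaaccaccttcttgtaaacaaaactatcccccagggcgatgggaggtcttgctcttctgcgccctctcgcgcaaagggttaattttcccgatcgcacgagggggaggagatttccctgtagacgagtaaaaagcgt
Acss2: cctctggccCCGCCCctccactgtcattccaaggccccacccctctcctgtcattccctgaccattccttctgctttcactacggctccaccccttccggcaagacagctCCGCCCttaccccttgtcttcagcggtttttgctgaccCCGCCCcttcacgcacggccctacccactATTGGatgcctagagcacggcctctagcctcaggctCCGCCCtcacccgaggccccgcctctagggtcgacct
Fasn: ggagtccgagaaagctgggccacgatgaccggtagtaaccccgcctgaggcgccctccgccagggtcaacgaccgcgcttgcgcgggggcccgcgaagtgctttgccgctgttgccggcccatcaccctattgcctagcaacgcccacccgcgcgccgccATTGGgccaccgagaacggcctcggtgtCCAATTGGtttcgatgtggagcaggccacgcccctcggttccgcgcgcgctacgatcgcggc
Thrsp: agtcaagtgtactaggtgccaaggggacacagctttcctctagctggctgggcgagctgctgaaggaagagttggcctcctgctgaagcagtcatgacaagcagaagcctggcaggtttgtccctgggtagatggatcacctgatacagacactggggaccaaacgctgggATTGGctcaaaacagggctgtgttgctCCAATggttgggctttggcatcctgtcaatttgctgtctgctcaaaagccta
Mlxipl: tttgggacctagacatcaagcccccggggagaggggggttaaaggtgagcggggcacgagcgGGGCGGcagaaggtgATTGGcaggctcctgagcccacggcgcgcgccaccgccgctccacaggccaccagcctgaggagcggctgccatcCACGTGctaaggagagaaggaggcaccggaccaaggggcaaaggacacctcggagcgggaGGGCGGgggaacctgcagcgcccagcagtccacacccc
A RefSeq promoter was matched for 9 of the 10 members. Fasn held 3 CCAAT matches, of which 2 overlap on opposite strands, and Thrsp held 2. Acss2 held 1 CCAAT and 4 GGGCGG, and this Mlxipl window held 1 CCAAT, 1 CACGTG and 2 GGGCGG. Elovl6 held none of the 4 motifs. The 9 members have 13 windows, 3 for Srebf1 and 2 each for Me1 and Mlxipl. Over all of them, CCAAT was found in 6 members, GGGCGG in 5, CACGTG in 1 and TCACNCCAC in 1. Among 32851 promoters of the same length, each a single window and so not on the same footing as counts over members, CCAAT was in 33.8%, GGGCGG in 32.7%, CACGTG in 6.02% and TCACNCCAC in 1.05%. A match is a run of letters and was not tested as a binding site.

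Levels were compared between genes on FPKM, which the authors scaled for gene length. Scd1, the desaturase that makes oleate and palmitoleate, was highest at 5369 ± 2341 FPKM (SD, n = 55). Fasn, fatty acid synthase, followed at 1238 ± 984.6 FPKM, and Thrsp, a nuclear protein known to rise with thyroid hormone and carbohydrate, stood at 1007 ± 564.7 FPKM. Me1, the malic enzyme that supplies NADPH, was at 409.8 ± 350.4 FPKM. Acly, the ATP citrate lyase that supplies cytosolic acetyl-CoA, was at 297.8 ± 279.1 FPKM. Acaca, the carboxylase that makes malonyl-CoA, was at 192.7 ± 137 FPKM. Acss2, which makes acetyl-CoA from acetate, was at 111.3 ± 92.3 FPKM. Srebf1, the gene of SREBP-1, was at 110.4 ± 30.7 FPKM and Mlxipl, the gene of ChREBP, at 61.0 ± 21.3 FPKM. Elovl6, which elongates palmitate to stearate, was lowest at 48.4 ± 56.2 FPKM. Below Scd1, neighbours in this order overlapped within 1 SD.

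**Figure D1:**
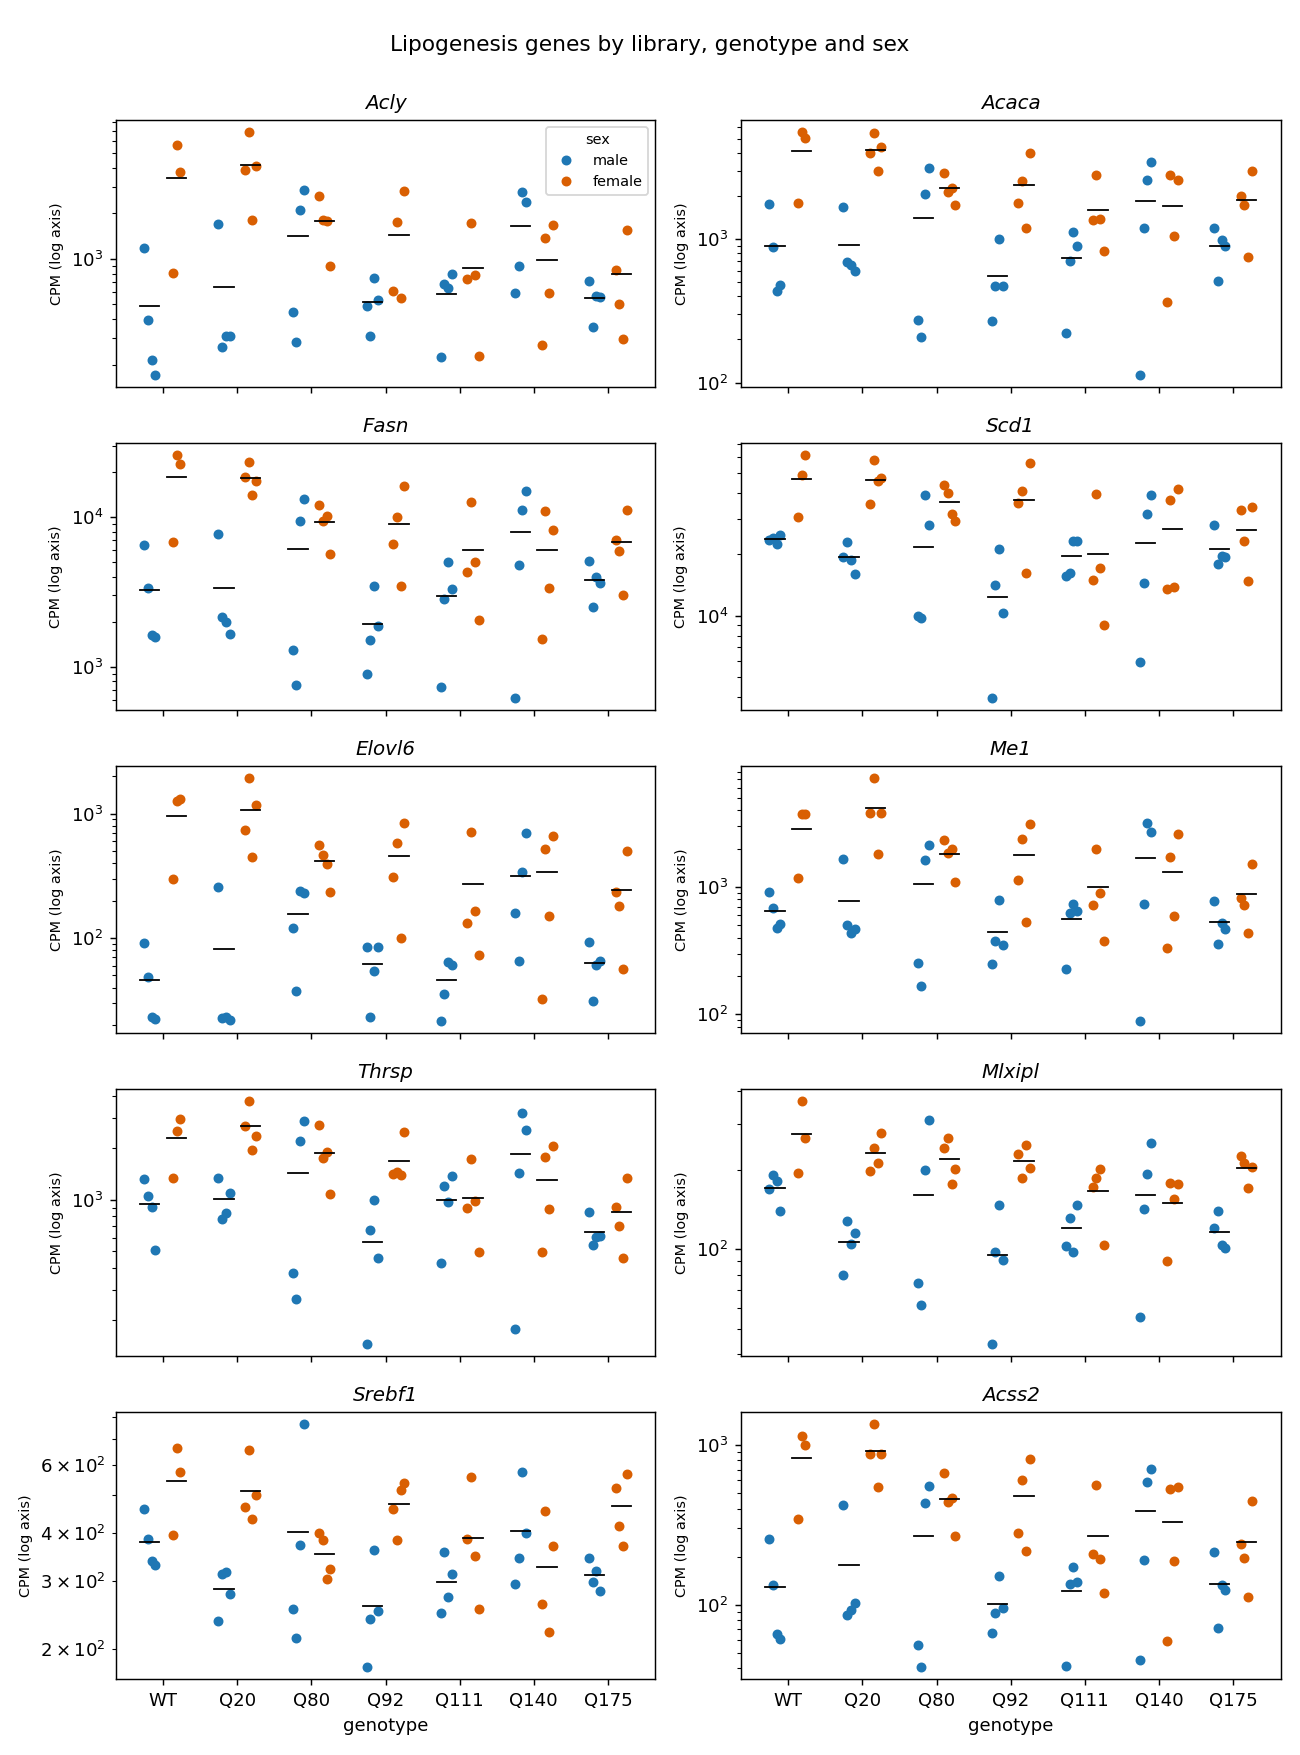
Level of each member in CPM (log axis) in every library, by genotype, with male libraries (blue) left of female libraries (orange) and a bar at the group mean. In Q20 all 4 males lie below all 4 females in each of the 10 panels.

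All 10 genes were lower in males than in females, by most for Elovl6 and by least for Srebf1. Together they took 2.93 ± 1.32% of all counts in males (n = 28) and 4.99 ± 2.20% in females (n = 27). Without the 2 Q140 libraries the shares were 2.81 ± 1.18% in males (n = 27) and 5.11 ± 2.15% in females (n = 26). Elovl6 had 21.5, 62.9 and 705.1 CPM as lowest, median and highest in males, against 32.3, 446.9 and 1927 CPM in females. The highest male value and the lowest female value are those of the 2 Q140 libraries that go against their labelled sex. Without them the highest male had 337.8 CPM and the lowest female 56.3 CPM. The log2 difference of Elovl6, male minus female, was -2.44 ± 0.33 (SE), with an adjusted p of 1.608e-07 by edgeR.

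The acetyl-CoA to palmitate enzymes followed. Fasn had 621.4, 3074 and 15060 CPM in males, against 1540, 9394 and 25910 CPM in females, at log2 -1.32 ± 0.28. The ranges overlapped, although the male median lay under the female one for every member. The highest male and lowest female values of Fasn and Acaca are again those 2 libraries, without which Fasn reached 13150 CPM in males and began at 2047 CPM in females. Acaca had 113.2, 794.9 and 3422 CPM in males, against 365.9, 2283 and 5558 CPM in females, at log2 -1.33 ± 0.27. Without the 2 libraries Acaca reached 3105 CPM in males and began at 751 CPM in females. Acly had 171, 564.2 and 2857 CPM in males, against 229.3, 1546 and 6885 CPM in females, at log2 -1.09 ± 0.28. Acss2, the acetate enzyme, averaged 188.2 ± 181.4 CPM in males and 491.4 ± 335.4 CPM in females, at log2 -1.41 ± 0.28. For the NADPH enzyme Me1 the averages were 810.7 ± 765.1 CPM in males and 1939 ± 1535 CPM in females, at log2 -1.23 ± 0.28.

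The desaturase and the regulators differed by less. Scd1 averaged 20150 ± 8502 CPM in males and 33850 ± 14650 CPM in females, at log2 -0.73 ± 0.18. Mlxipl averaged 133.1 ± 59.2 CPM in males and 207 ± 53.4 CPM in females, at log2 -0.66 ± 0.13. Thrsp differed by -0.65 ± 0.22, with the largest adjusted p of the members at 0.0155. Srebf1 averaged 333.7 ± 115.3 CPM in males and 434.6 ± 116.1 CPM in females, at log2 -0.39 ± 0.10.

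These 10 calls of 10, all lower in males, stand beside 18.3% of all tested genes called lower in males and 46.3% called in either direction. The members' median difference was -1.16, against 0.06 for all tested genes. All 10 were called without each of the 55 libraries in turn and without the 2 Q140 libraries. Without those 2 the differences ran from -2.59 ± 0.32 for Elovl6 to -0.40 ± 0.11 for Srebf1 (49.3% of genes called). The 14 males high in epididymis and testis markers were all 4 of Q175, 3 each of Q140, Q92 and Q80, and 1 of Q20. Without them Q175 kept no male, and without Q140 male 4 as well Q140 kept none. The next fits thus rest mostly on Q20, WT and Q111 and do not give the sex difference of all genotypes. The members' median difference was -2.3 in Q20, -2.19 in WT and -0.7 in Q111, against -0.76 in Q175 and 0.26 in Q140 as labelled. Without the 14 males high in epididymis and testis markers, in a fit with additive genotype and sex terms, 6 were called beside 27.2% of genes, and Acly (-1.16, adjusted p = 0.0579), Scd1 (-0.54, adjusted p = 0.0504), Thrsp (-0.46, adjusted p = 0.162) and Srebf1 (-0.23, adjusted p = 0.206) were not. With the 2 Q140 libraries also left out, 9 were called beside 34.7% of genes, Elovl6 stood at -3.37 ± 0.50 and Srebf1 lost its call at -0.29 (adjusted p = 0.114).

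**Figure D2:**
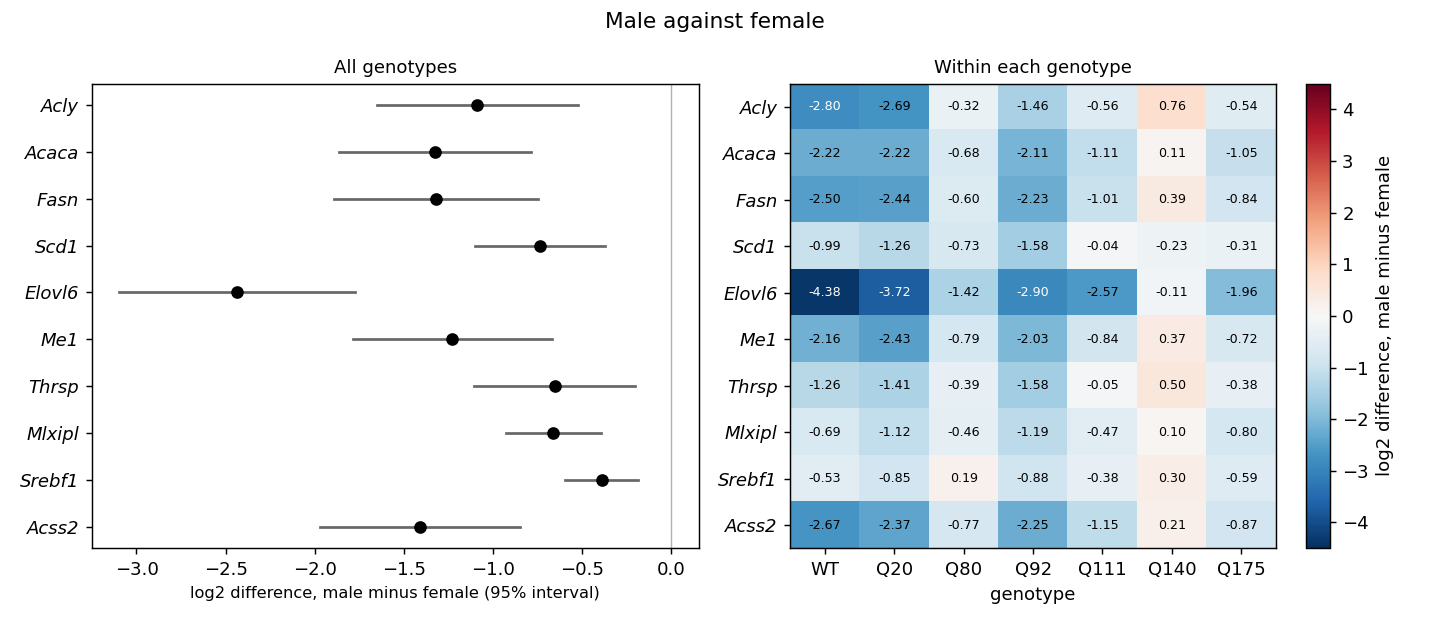
Left, the log2 difference of males minus females for each member with its 95% interval; right, the same difference within each genotype, on a colour scale where blue is lower in males. All 10 intervals on the left lie below 0, and the lowest cell on the right is Elovl6 in WT at -4.38.

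Markers of other cells also differed between the sexes, where 27.9% of all tested genes were called higher and 18.3% lower in males. Of 14 adipocyte markers, 3 were lower in males (Retn at -0.71, Pnpla2 at -0.39 and Pparg at -0.38) and the median of the list was -0.22. All 6 skeletal muscle markers, 6 of 8 brown and beige markers and 4 of 6 mesothelial markers were lower in males. Higher in males were 7 of 10 tested epididymis and testis markers, 7 of 9 tested mammary epithelial markers and 7 of 10 lymphocyte markers. The mammary epithelial list holds keratins and other general epithelial genes, so it does not mark mammary tissue alone. Its sum was 1289 CPM in Q140 male 1 and 772.8 CPM in Q80 male 1, whose epididymis and testis sums were 30400 and 19850 CPM. In Q111 male 1 these sums were 210.4 and 30.6 CPM. Of 8 genes raised by fasting, 4 were higher and 2 lower in males, and of 12 clock genes 3 were higher and 8 lower. Of the other lists, 2 of 10 macrophage and 2 of 8 endothelial markers were higher, 1 of 10 progenitor markers was higher and 3 lower, 2 of 8 tested female tract markers were higher and 3 lower, and 1 of 7 exocrine pancreas markers was higher. The part of these differences in the members' values was not tested.

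**Figure D3:**
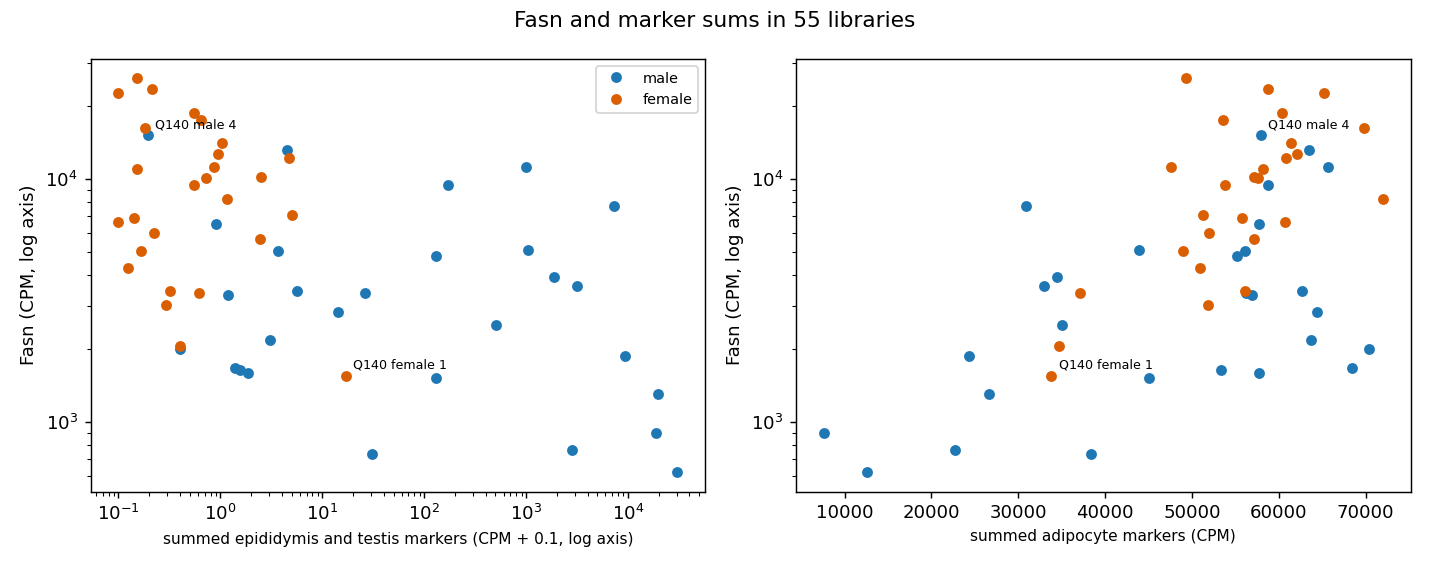
Fasn in CPM (log axis) in each of 55 libraries against summed epididymis and testis markers (left, with 0.1 CPM added, log axis) and summed adipocyte markers (right), with males in blue and females in orange. Q140 male 4 lies among the females at 15060 CPM, and the lowest Fasn value is 621.4 CPM in a male library.

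The lowest Fasn value was in Q140 male 1, which also had the highest epididymis and testis sum, 30400 CPM, and an adipocyte sum of 12530 CPM. Q92 male 1, with the lowest adipocyte sum of 7593 CPM, had Fasn at 895.7 CPM. Q20 male 1 had an epididymis and testis sum of 7219 CPM and an adipocyte sum of 30880 CPM, with Fasn at 7703 CPM, above the other 3 Q20 males.

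The male to female difference was also read within each genotype. In WT, Elovl6 had 91.3, 48.2, 23.4 and 22.4 CPM in the males, against 299, 1263 and 1319 CPM in the females. In Q20 it had 257, 22.7, 23.2 and 22.1 CPM in the males, against 732.9, 1927, 446.9 and 1167 CPM in the females. No male reached a female in either genotype, and the difference was -4.38 ± 0.96 in WT (adjusted p = 0.0144) and -3.72 ± 0.91 in Q20 (adjusted p = 0.0151). Fasn in Q20 had 7703, 2166, 1997 and 1655 CPM in males, against 18670, 23430, 13980 and 17400 CPM in females. In WT, Fasn had 6477, 3374, 1630 and 1585 CPM in males, against 6871, 25910 and 22480 CPM in females. The lowest WT female lay just above the highest WT male.

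In Q175 and Q140 the sexes overlapped in these genes. Elovl6 in Q175 had 92.9, 31.2, 61.1 and 65.5 CPM in males, against 236, 179.8, 56.3 and 502.6 CPM in females. Fasn in Q175 had 5072, 2505, 3956 and 3633 CPM in males, against 7090, 5979, 3027 and 11150 CPM in females. In Q175, 1 female value of each gene fell among the males. Elovl6 in Q140 had 160.1, 65.1, 337.8 and 705.1 CPM in males, against 32.3, 521.9, 150.5 and 662.4 CPM in females, where the last male and first female value are those of the libraries that go against their labelled sex.

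Every male lay below every female for 10 of 10 genes in Q20, where 7.97% of tested genes did so. The same held for 8 genes in WT (8.42%), 6 in Q92 (6.03%), 2 in Q175 (12.2%) and 1 in Q111 (5.38%). It held for 0 genes in Q80 (4.99%) and 0 in Q140 (0.985%). By edgeR, Q92 had 9 members called, Acly being the exception, beside 34.3% of all genes. In Q92, 3 of the 4 males were high in epididymis and testis markers, and their part in the result was not tested. Q20 had 2 called, Elovl6 and Acly (3.41% of genes), and WT had Elovl6 alone (1.26%). The members called were 0 in Q80 (5.85%), Q111 (3.44%), Q140 (0%) and Q175 (1.16%), with 0, 1, 0 and 3 members at an unadjusted p under 0.05 in that order. Here and below, percentages of genes beside called members are shares at an adjusted p under 0.05. They are no background for counts at an unadjusted p, for which no share of all genes is given. Without its 2 libraries that go against their labels, 3 males and 3 females were left in Q140, every male lay below every female for 0 members (6.32% of genes), and edgeR called 0 members (6.24%), with 0 at an unadjusted p under 0.05. There 7 members were negative, with a median of -0.43, whereas with all Q140 libraries as labelled 8 were positive, with a median of 0.26. In Q80, 9 members were negative and 1 positive, with a median of -0.64. The test of whether the sex difference is the same in all genotypes called 0 members (2.06% of genes), with 3 at an unadjusted p under 0.05 and the lowest adjusted p at 0.174 for Srebf1. DESeq2 called 2 and voom with quality weights called 10, beside 6.76% and 47.4% of all genes. Without the 2 Q140 libraries edgeR called 0 members (1.54% of genes).

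Comparisons of genotypes, averaged over the sexes, ask whether the knock-in alleles go with other levels of these genes. No member was called by edgeR in any of them. In Q175 against WT all 10 were negative, from -1.0 to -0.25, with a median of -0.69 against 0.01 for all tested genes. Of all genes 10.4% were called there. Thrsp was the only member at an unadjusted p under 0.05, with 846.4, 542.9, 607.7 and 613.5 CPM in Q175 males and 903.8, 698.6, 460.7 and 1344 CPM in Q175 females. In WT it had 1311, 1052, 909.9 and 512.6 CPM in males and 1333, 2520 and 2965 CPM in females. The groups overlapped, and the log2 difference was -0.98 ± 0.43 (adjusted p = 0.144). DESeq2 called 0 members and voom with quality weights 4, beside 14.9% and 39.9% of genes.

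In Q175 against Q20 the median was -0.88, with 14.2% of all genes called and 5 members at an unadjusted p under 0.05. All 10 values were negative, with Srebf1 at -0.01, and 9 were negative under RLE or upper-quartile scaling. Me1 had 821.8, 721.9, 431.9 and 1516 CPM in Q175 females, against 3813, 7149, 1829 and 3794 CPM in Q20 females, which did not overlap. In males it had 777.9, 355.1, 523.4 and 468.7 CPM in Q175, against 1674, 504.6, 435.7 and 467.6 CPM in Q20. The difference over both sexes was -1.39 ± 0.52 for Me1 (adjusted p = 0.0636), -1.14 ± 0.42 for Thrsp (adjusted p = 0.0600), -1.31 ± 0.52 for Acly (adjusted p = 0.0856), -1.13 ± 0.51 for Acss2 and -1.25 ± 0.59 for Elovl6. DESeq2 called 3 members and voom with quality weights 4, beside 17.8% and 49.5% of genes. Without Q20 female 3, edgeR called Me1, with no share of all genes given for that run. Without Q20 male 1 the median was -0.35, with Elovl6 at -0.33, Acly at -0.74, Acss2 at -0.67, Me1 at -1.03 and Thrsp at -1.06. Set apart from the other genotypes, Q175 against Q20 gave 4 members called (35.9%) and Q175 against WT 3 (32.8%).

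The other lines were set against the same Q20 libraries. The members' median was -0.87 in Q111 (0% of genes called, 4 members at an unadjusted p under 0.05), -0.79 in Q92 (6.11%, 0 members), -0.16 in Q140 (0%, 0 members) and -0.08 in Q80 (0%, 0 members). Without Q20 male 1 the medians were -0.60 in Q111, -0.45 in Q92, 0.09 in Q140 and 0.16 in Q80. DESeq2 called 0 members in each of these, beside 0.667% of genes in Q111, 9.15% in Q92, 2.36% in Q140 and 0.75% in Q80. In Q140 and Q80, 9 of 10 values were negative, but by voom with quality weights 8 in Q140 and 9 in Q80 were positive. Without the 2 Q140 libraries all 10 were negative in Q140, with a median of -0.22 and 0 members called (0% of genes). Q20 against WT had a median of 0.10, with 7 positive values (0.753%), and of -0.21 without Q20 male 1. Over the 6 knock-in lines the slope on repeat number was negative for all 10 (for 9 without the 2 Q140 libraries), with a median of -0.46 log2 units per 100 repeats (8.32%). Acly stood at -0.75 ± 0.31 (adjusted p = 0.120), Me1 at -0.71 ± 0.30 and Thrsp at -0.58 ± 0.25, the 3 members at an unadjusted p under 0.05. Without Q20 male 1 the median slope was -0.20, with Acly at -0.41, Me1 at -0.50 and Thrsp at -0.54. Over Q20 to Q140, leaving out Q175, the slope was negative for all 10 with 0 members called, beside only 0.00474% of genes. Over Q80 to Q175, leaving out Q20, it was negative for 9 with 0 called, beside 12.9% of genes. The joint test over all 7 genotypes gave adjusted p of 0.141 or more for the members, with 0 at an unadjusted p under 0.05, while 25.3% of all genes were called. There DESeq2 called 0 members and voom with quality weights 7, beside 31.3% and 76.7% of all genes. Without the 14 males high in epididymis and testis markers and the 2 Q140 libraries, edgeR called 1 member in the joint test (17.7% of genes), and Me1 and Thrsp in Q175 against Q20 (17.7%). This subset holds the 4 Q175 females and 0 Q175 males, so its Q175 values are those of females. There Thrsp stood at -1.32 ± 0.42 (adjusted p = 0.0256) and Me1 at -1.74 ± 0.59 (adjusted p = 0.0379).

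Cell markers moved with some of these comparisons. Of all tested genes, 3.34% were called higher and 7.10% lower in Q175 against WT. In Q175 against WT, 0 of 14 adipocyte markers were called (median -0.29), 5 of 10 macrophage markers and 5 of 10 progenitor markers were higher, and 2 of 10 tested epididymis and testis markers were higher. All 4 Q175 males and 0 WT males were among the 14 males above 100 CPM in that sum. The part of these markers in the members' values was not tested.

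The comparison was then read in each sex. In females, Q175 against WT had a median of -1.43 with all 10 negative and 5 at an unadjusted p under 0.05 (0.199% of genes called). In males the median was -0.07 with 5 of 10 negative (1.76%). Neither called a member by edgeR or by DESeq2 (3.03% of genes in females and 6.55% in males), and voom with quality weights called 7 in females and 1 in males, beside 19.7% and 34.3% of genes. The difference between these effects, male minus female, had a median of 1.30, and 0 members were called (0.0284%), with Acly alone at an unadjusted p under 0.05 (2.26 ± 1.07).

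A fit of the 26 female libraries alone, without Q140 female 1, called members that the fit of all libraries did not. In the slope over repeat number Thrsp stood at -0.98 ± 0.23 per 100 repeats (adjusted p = 0.0164), Me1 at -1.32 ± 0.36 (adjusted p = 0.0266), Acly at -1.48 ± 0.41 (adjusted p = 0.0283) and Acss2 at -1.11 ± 0.32 (adjusted p = 0.0350), beside 10.1% of genes called. The same 4 were called there in Q175 against Q20 (17.2%), at -1.65 ± 0.39 for Thrsp, -2.24 ± 0.61 for Me1, -2.38 ± 0.69 for Acly and -1.87 ± 0.55 for Acss2. The sums of 4 of the 12 marker lists did not overlap between these females. Macrophage markers summed to between 1274 and 1392 CPM in Q175 females, against 884.1 to 1057 CPM in Q20 females, and progenitor markers to between 2732 and 2860 CPM in Q175 females, against 1891 to 2244 CPM in Q20 females. The adipocyte sum lay between 47600 and 51980 CPM in Q175 females and between 53530 and 61420 CPM in Q20 females. Skeletal muscle markers summed to between 31.8 and 843.5 CPM in Q175 females, against 4.48 to 23.2 CPM in Q20 females, and the part of these markers in the members' values was not tested. Thrsp alone was called in Q175 against WT, at -1.40 ± 0.41 (adjusted p = 0.0407, 7.43% of genes). In WT females the macrophage sum was 489.5 to 867 CPM and the progenitor sum 1147 to 1987 CPM, both below the Q175 females. The endothelial sum was 915.3 to 1039 CPM in Q175 females and 829.6 to 915.2 CPM in WT females, and the epididymis and testis sum stayed under 5 CPM in both. The part of these markers in the call was not tested. In a fit of male libraries alone the slopes of all 10 lay between -0.14 and 0.21, and the lowest adjusted p was 0.875, beside 0.0824% of genes called. Whether the slope, or Q175 against Q20, differed between the sexes was not tested, so calls in females alone do not show a difference from males.

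The 5 expanded lines were then set against Q20 and WT together, a grouping chosen after the values were seen. Over both sexes the median was -0.47, with 2 members at an unadjusted p under 0.05 and 0 called by edgeR (0.0995% of genes) or DESeq2 (8.22%), and 1 by voom with quality weights (23.2%). The 10 genes took 4.17 ± 1.71% of counts in expanded females (n = 20) and 7.33 ± 1.73% in unexpanded females (n = 7). Without Q140 female 1 the expanded females stood at 4.29 ± 1.67% (n = 19). The 10 genes took 2.96 ± 1.54% in expanded males (n = 20) and 2.88 ± 0.593% in unexpanded males (n = 8). The highest expanded male share, 6.18%, was that of Q140 male 4, which goes against its labelled sex, so no order is given for males. Fasn had 1540, 6847 and 16160 CPM as lowest, median and highest in expanded females, against 6871, 18670 and 25910 CPM in unexpanded females. The lowest of these Fasn values is that of Q140 female 1, which goes against its labelled sex. Acly had 229.3, 868.8 and 2820 CPM in expanded females, against 804.4, 3870 and 6885 CPM in unexpanded females. Both genes overlapped between the groups, with 1 WT female near the middle of the expanded range.

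In females all 10 differences were negative, with a median of -1.22 against 0.02 for all tested genes. All but Mlxipl, 9 of 10, had an unadjusted p under 0.05, and 0 were called by edgeR (0.0663% of genes). That share is at an adjusted p under 0.05, so it is no background for the 9. Acly stood at -1.76 ± 0.42 (adjusted p = 0.0788), Elovl6 at -1.59 ± 0.48, Me1 at -1.41 ± 0.42 and Fasn at -1.33 ± 0.43. Leaving out Q92 female 4, Q111 female 2 or WT female 1 brought Acly under the threshold, with no share of all genes given for those runs. DESeq2 called 1 member and voom with quality weights 9, beside 2.01% and 9.12% of genes. In the 26 female libraries alone Acly (-1.68 ± 0.39, adjusted p = 0.0351), Fasn (-1.25 ± 0.31), Acss2 (-1.24 ± 0.32) and Acaca (-1.03 ± 0.27) were called, beside 1.75% of genes. The adipocyte sum had a median of 54950 CPM in expanded females (56110 CPM without Q140 female 1) and 58800 CPM in unexpanded females. Progenitor sums ran from 1502 to 3624 CPM in expanded females and from 1147 to 2244 CPM in unexpanded females. Macrophage sums ran from 698.1 to 1530 CPM and from 489.5 to 1057 CPM in the same order. The part of these markers in the female differences was not tested.

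In males the median was 0.11, with 8 values positive, 0 members called (0.0284%) and 0 at an unadjusted p under 0.05. The count of positive values was 7 under upper-quartile scaling and without the 2 Q140 libraries, 6 on either log2 FPKM scale and 4 with the replicate block, so no direction is given for males. Voom with quality weights called 3 members there, beside 29.6% of genes, and without Q20 male 1 edgeR called Elovl6 at 1.59, against 0.67 with it. The male minus female difference of the effect was positive for all 10, with a median of 1.37, 6 members at an unadjusted p under 0.05 and 0 called (0.00474%). Acly stood at 2.32 ± 0.63 (adjusted p = 0.187) and Elovl6 at 2.25 ± 0.71, and both were called without Q20 male 1. No share of all genes called is given for the run without Q20 male 1. DESeq2 called 1 member of this difference and voom with quality weights 7, beside 1.08% and 11.8% of genes. Of the males, 13 of 20 expanded and 1 of 8 unexpanded reached 100 CPM in epididymis and testis markers, with median sums of 339.3 CPM in expanded males and 1.62 CPM in unexpanded males. The adipocyte sum had a median of 44460 CPM in expanded males and 57740 CPM in unexpanded males, and the part of these markers in the difference was not tested.

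**Figure D4:**
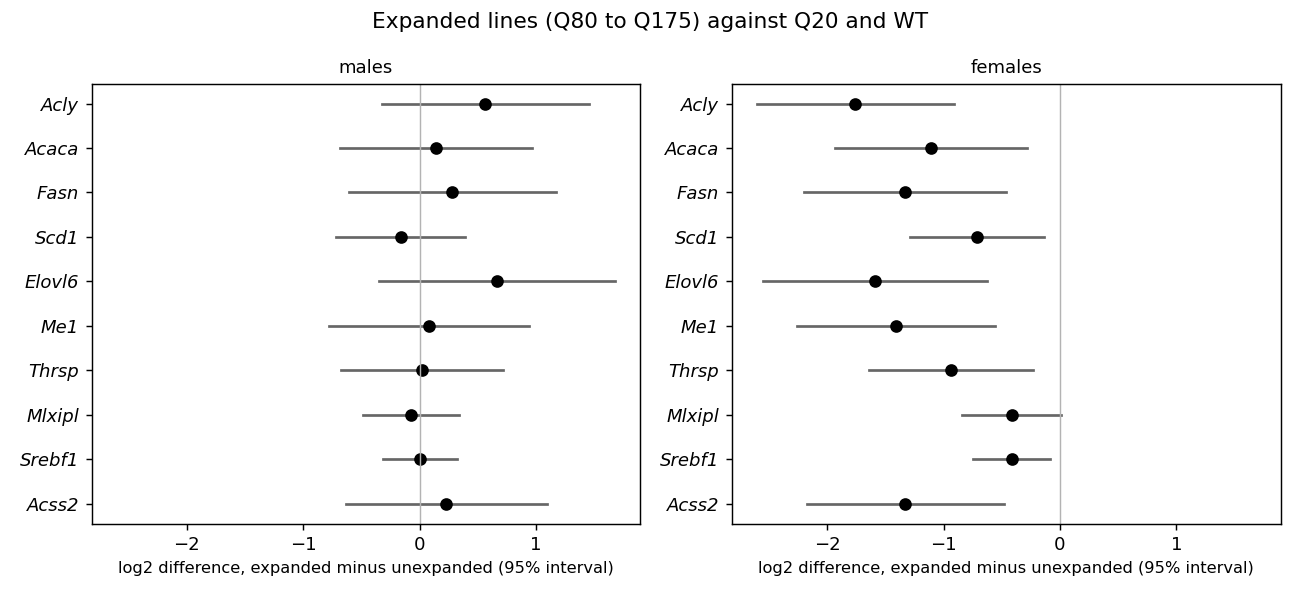
Log2 difference of the 5 expanded lines minus Q20 and WT for each member with its 95% interval, in males (left) and females (right). In females all 10 points lie below 0 with a median of -1.22, and in males all 10 intervals cover 0.

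Libraries of 1 group differed widely in these genes, and the genes did so together. The SD within groups, on the log2 scale, was 1.23 for Elovl6, 1.15 for Fasn, 1.14 for Me1, 1.10 for Acaca and Acss2 and 1.08 for Acly. It was 0.93 for Thrsp, 0.70 for Scd1, 0.51 for Mlxipl and 0.38 for Srebf1, against a median of 0.29 over the 1676 genes of at least 100 CPM. After group means were removed, the 45 pairs of members had a median r of 0.78 over 55 libraries. Acaca and Fasn were the closest pair at 0.99, and Elovl6 and Mlxipl the least close at 0.34. The median r was 0.79 in male libraries, 0.91 in female libraries and 0.84 in the 37 libraries left for this measure without those high in epididymis and testis markers and the 2 Q140 libraries. The points share library, depth and tissue composition, so r is given as a description.

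**Figure D5:**
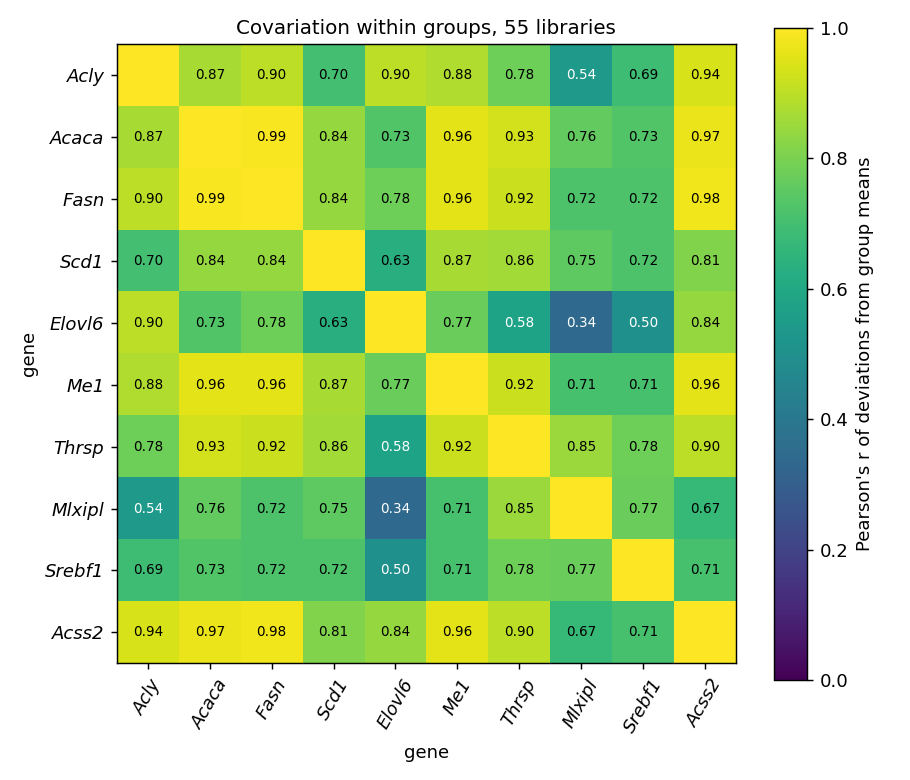
Pearson's r of each pair of members over 55 libraries, on log2(CPM + 0.5) with group means removed. Values run from 0.34 for Elovl6 with Mlxipl to 0.99 for Acaca with Fasn.

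Of 14025 other genes, the 10 whose values followed the members' mean most closely within groups were ranked by r over 55 libraries. Tkt, the transketolase of the pentose phosphate pathway, came first at 0.985, then Gbe1, the glycogen branching enzyme, at 0.968. Pdhb and Pdha1, subunits of pyruvate dehydrogenase, stood at 0.963 and 0.962, and Slc25a1, the mitochondrial citrate carrier, at 0.953. Hsd17b12 (a ketoacyl-CoA reductase of elongation, 0.949), Pcx (pyruvate carboxylase, 0.939), Gpd1 (glycerol-3-phosphate dehydrogenase, 0.935), Echdc1 (0.932) and Pdhx (a pyruvate dehydrogenase component, 0.930) followed. In the 37 libraries their r lay between 0.824 for Echdc1 and 0.972 for Tkt. All 10 were lower in males, from -1.11 for Tkt to -0.44 for Pdhx.

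Genes around the pathway were read in 6 lists of 127 genes, of which 126 were tested. In males 28 of them were higher and 49 lower than in females. Of 26 genes of substrate and NADPH supply, 1 was higher and 23 lower, with a median of -0.44. G6pdx, the entry enzyme of the pentose phosphate pathway, stood at -0.76 ± 0.12, the glycolytic Pgk1 at -0.42 ± 0.06 and Gpi1 at -0.32 ± 0.05, while the glucose transporter Slc2a1 stood at 0.58 ± 0.10. Of 23 genes of elongation, desaturation and other acyl steps, 9 were higher and 7 lower in males. Among them were Acsl1, an acyl-CoA synthetase, at -1.18 ± 0.16, Elovl3 at -3.35 ± 0.49 (0.158 ± 0.270 CPM in males and 1.47 ± 1.97 CPM in females), Hacd2 at 0.55 ± 0.08 and Fads6 at 1.42 ± 0.21. Of 25 tested genes of SREBP and ChREBP control, 6 were higher and 5 lower. Insig1, which holds SREBP in the endoplasmic reticulum and is itself an SREBP target, stood at -1.01 ± 0.16, the ChREBP partner Mlx at -0.46 ± 0.08 and the SREBP escort Scap at 0.36 ± 0.08.

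Of 24 genes of insulin, mTOR and AMPK control, 2 were higher and 8 lower in males, with the insulin receptor substrate Irs1 at -0.86 ± 0.13 and Pik3r1 at -0.43 ± 0.08. Of 14 genes of triglyceride synthesis, 6 were higher and 4 lower, with the acyltransferases Gpam at -1.10 ± 0.14 and Gpat3 at -0.80 ± 0.15 and the glycerol kinase Gk at 1.86 ± 0.39. Of 14 known ChREBP or LXR targets, 4 were higher and 2 lower. Pklr had the smallest p of them, at 7.55 ± 1.42, opposite in direction to the members. It averaged 5.19 ± 9.12 CPM in males and 1.43 ± 7.43 CPM in females. Arrdc4 stood at 0.42 ± 0.09, Tm6sf2 at 0.57 ± 0.16 and Gpd1 at -0.68 ± 0.20. The background for these counts is the 27.9% of all genes called higher and 18.3% called lower in males. All of these values are from the fit of 55 libraries, which holds the 14 males high in epididymis and testis markers. The part of that tissue in them was not tested.

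Between genotypes edgeR called some of the supply genes, a contrast with the members that was not tested. In Q175 against Q20, 0 of the 26 were higher and 12 lower, with a median of -0.56, against 0 members called and their median of -0.88, beside 9.70% of all genes called lower. Gapdh stood at -1.0 ± 0.20 (adjusted p = 0.000573), Gpi1 at -0.48 ± 0.10, Pgls at -0.46 ± 0.11 and Mdh1 at -0.64 ± 0.16. In Q175 against WT 5 of the 26 were lower, with Gpi1 at -0.34 ± 0.10 and Gapdh at -0.66 ± 0.21, beside 7.10% of genes, and in the slope over repeat number 0 were higher (2.65% of genes) and 6 lower (5.66%). Of the SREBP and ChREBP control genes, 2 were higher and 3 lower in Q175 against WT, with Crtc2 at -0.41 ± 0.07 and Usf1 at -0.38 ± 0.09, beside 3.34% of all genes called higher. In Q175 against Q20, 4 of these were higher and 3 lower, with the ChREBP relative Mlxip at 0.36 ± 0.08, beside 4.54% of all genes called higher. In Q175 against WT the acyl-step list had 0 called, the insulin list 2 lower, the ChREBP or LXR target list 2 lower and the triglyceride list 2 lower. In Q175 against Q20 the acyl-step list had 0 higher and 4 lower, which were the elongation enzymes Tecr (-0.73 ± 0.20), Hsd17b12 (-0.74 ± 0.25), Hacd1 (-0.58 ± 0.16) and Elovl1 (-0.34 ± 0.11), and in the slope Tecr (-0.39 ± 0.12) and Hacd1 (-0.30 ± 0.09) were lower. In Q175 against Q20 the insulin list had 2 higher and 1 lower, the ChREBP or LXR target list 1 higher and 3 lower, and the triglyceride list 0 higher and 2 lower.

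Paralogs did not all show the male to female difference of their relatives. Scd2 averaged 452.4 ± 374.8 CPM in males and 418 ± 177.7 CPM in females, at log2 0.01 ± 0.21. Acacb, the carboxylase tied to the outer mitochondrial membrane, stood at -0.32 ± 0.20 (adjusted p = 0.190), and Mid1ip1, a relative of Thrsp, at 0.29 ± 0.17 (adjusted p = 0.173). Elovl5 at -0.28 ± 0.08 and Me3 at -0.57 ± 0.17 were lower in males, and Acss1 stood at 0.06 ± 0.05. Members and paralogs were not tested against each other. How reads common to Scd1 and its close copies were counted is not given in the sources used here.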

How the data were processed

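Messenger RNA of gonadal white fat was measured in 55 libraries. RNA came from frozen tissue (Qiagen miRNeasy, Agilent Bioanalyzer) and went into Illumina libraries, per the labels' protocols. CASAVA 1.8.2 is named in the submitters' processing notes. Aligner, counter, build and read assignment were not given in the sources used. The authors deposited estimated counts (expected counts, unscaled) and FPKM for 43432 genes. Of nonzero counts, 33.7% were not whole (tolerance 1e-06), and all were rounded. GENCODE M21 named 42462 genes. Depth limits counting error only.

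Tests ran in edgeR 4.0.16 (R 4.3.3): TMM scaling, filterByExpr over 14 groups, a robust quasi-likelihood fit with 1 mean per group, and Benjamini-Hochberg adjustment over 21113 genes, with calls at an adjusted p under 0.05. Levels are CPM on TMM-scaled sizes. Alternatives used DESeq2 1.42.0, limma 3.58.1 (voom with quality weights, and log2(FPKM + 0.1)), other scalings, filters and subsets of libraries. The scripts were tested on simulated data. The members, the 6 pathway lists, the marker lists and the naming rule were chosen with earlier results of these data known. From each pathway list at most the 4 called genes of smallest p per comparison were named, and the 10 genes most like the members were taken among those of at least 1 CPM.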

Additional observations from a re-analysis of the deposited data

Results flagged for a closer look

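In 130 combinations of a member and a group of 4 libraries, 1 library stood far from the other 3 in 9, where its gap to the nearest, divided by the group's range, passed Dixon's 95% critical value for 4 libraries. Chance flags about 1 in 20 such groups. Q20 male 1 was high in 5 genes. Its Elovl6 was 257 CPM, against 22.1 to 23.2 CPM in the other 3 Q20 males (ratio 0.979). Its Acly was 1710 CPM, against 260.7 to 308.9 CPM (0.91), and its Me1 1674 CPM, against 435.7 to 504.6 CPM (0.891). Acss2 was 423.4 CPM, against 85.8 to 102.3 CPM (0.891), and Acaca 1663 CPM, against 598.8 to 687.5 CPM (0.865). This library had an epididymis and testis sum of 7219 CPM.

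Q111 male 1 was low in 3 genes. Its Me1 was 226.4 CPM, against 621.9 to 739.9 CPM in the other 3 Q111 males (0.853), its Acly 225.8 CPM, against 645.1 to 799.3 CPM (0.83), and its Acss2 41.3 CPM, against 134.6 to 171.3 CPM (0.83). Its adipocyte sum was 38380 CPM, against 56130 to 64380 CPM in the other 3. Its female tract markers summed to 277.9 CPM, against 46.6 to 66.7 CPM, its mammary epithelial markers to 210.4 CPM, against 8.23 to 28.9 CPM, and its Xist was 15.3 CPM, against 0.161 to 0.487 CPM. The part of these in its low values was not tested. Q92 female 4 was high in Thrsp, at 2488 CPM, against 1401 to 1444 CPM in the other 3 Q92 females (0.947).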

How the results depend on the processing

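No value changed sign while called. The 10 calls between males and females held in every alternative run except 4: without libraries high in epididymis and testis markers (6 called), without these and the 2 Q140 libraries (9), with a lane term (9, beside 35.9% of genes) and at a threshold of 0.01 (9). Genotype counts of 0 moved as follows, and the cause was not tested. By voom with quality weights, members called were 7 for any genotype, 4 for Q175 against WT, 4 for Q175 against Q20, 2 for the slope (35.4% of genes), 10 for genotype by sex, 1 for expanded against unexpanded, 9 for expanded females, 3 for expanded males and 7 for the male minus female difference. DESeq2 called 3 for Q175 against Q20, 2 for genotype by sex, 1 for expanded females and 1 for the male minus female difference. The fit of female libraries alone called 1 for any genotype (12.3% of genes), 1 for Q175 against WT, 4 for Q175 against Q20, 4 for the slope and 4 for expanded against unexpanded. Without libraries high in epididymis and testis markers and the 2 Q140 libraries, counts were 1, 2 and 2 for any genotype, Q175 against Q20 and the slope (10.5% of genes). The 2 genotypes alone gave 3 for Q175 against WT and 4 for Q175 against Q20, and a mean of at least 1 CPM gave 1 for Q175 against Q20 (20.5% of genes).

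Leaving out 1 library at a time gave 10 to 10 calls between the sexes, 0 to 1 for genotype by sex (1 without Q20 male 1), 0 to 1 for Q175 against Q20, 0 to 1 for expanded females, 0 to 1 for expanded males, 0 to 2 for the male minus female difference, and 0 to 0 for any genotype, Q140, Q111, Q92 and Q80 against Q20, Q175 and Q20 against WT, the slope, expanded against unexpanded over both sexes and the difference of the Q175 to WT effect between the sexes. No share of all genes called is given for the runs without 1 library, here or above. Whether more genes as a whole were called in them is therefore not shown. Differences between the sexes within a genotype, and Q175 against WT within a sex, were not run this way. Replicate numbers showed no clear pairing: the median r was 0.013 for pairs with the same number and -0.006 for pairs with different numbers. Of 351 pairs with the same number, 116 had r over 0.1, and 14 of 55 libraries correlated best with their own number. With the replicate block 10 members were called between the sexes, beside 9659 of all genes, and 0 between genotypes. On unscaled totals, the mean CPM of a member in males or females was 0.91 to 1.03 times those on TMM-scaled sizes. On log2(FPKM + 0.1) the median of all genes was 0.16 between the sexes, 0.17 for Q175 against WT and 0.20 for Q175 against Q20, and the median r of the members was 0.75.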
